A study of Mus musculus with 16 samples.

Results

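Mouse blastocysts exposed to 20 µM SB203580, used as an inhibitor of the p38 MAP kinases, were compared directly with blastocysts exposed to 25 µM SP600125, used as an inhibitor of the JNK kinases. The 6 samples were all those whose labels name either compound, out of 12 samples in the series, and took 8 of its 16 arrays. Each compound had 3 samples. Doses therefore differed between the arms, and each compound was tested at 1 dose. The other samples were 3 given 20 µM U0126, an inhibitor of the kinase MEK, and 3 control blastocysts for which no agent is named and for which the labels do not say whether solvent was added. Neither group enters the difference between SB203580 and SP600125, but both help to set its error. Control signals are given beside it for many genes, and U0126 signals for a few. The labels used here name neither the strain nor the exposure time nor the number of embryos in a sample. Nor do they state that replicates came from separate cultures, and a p-value then reflects only how these samples vary, which may be technical. A sample is RNA of whole embryos, in which fewer cells of a type and less RNA per cell cannot be told apart.

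The p38 and JNK kinases are stress-activated members of the MAP kinase family. Each is switched on by upstream kinases, and each phosphorylates transcription factors and further kinases. The kinases MK2 and MK3, encoded by Mapkapk2 and Mapkapk3, act directly below p38, whereas c-Jun, encoded by Jun, is the classical substrate of JNK. The blastocyst is built of an outer trophectoderm, which pumps fluid into the cavity and later forms placental tissue, and an inner cell mass that separates into the epiblast, source of the fetus, and the primitive endoderm, source of the yolk sac lining. Primitive endoderm is known for its dependence on FGF and PDGF receptor signalling and for secretion of basement membrane.

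For replicate 1 RNA was labelled with the small sample assay and read on 430A plus 430B arrays, whereas replicates 2 and 3 were labelled with the two-cycle assay and read on 430 2.0 arrays. Signals are array brightness scaled by the authors to a trimmed mean of 500, so a level in replicate 1 can be set only against replicate 1 of another group. On the 430 2.0 arrays the median signal of the SB203580 samples was 66.2 and 68.9, and that of the SP600125 samples 61.5 and 66.5. Actin 3'/5' signal ratios, which grow where RNA is degraded or labelled products are short, were 2.81 with SB203580 and 3.66 with SP600125 on the 430A arrays of replicate 1. On the 430 2.0 arrays they were 1.75 and 1.71 with SB203580, against 1.75 and 1.62 with SP600125. The same ratio for Gapdh was 3.17, 3.54 and 2.84 with SB203580, against 3.46, 3.95 and 3.37 with SP600125 in replicates 1 (430A) to 3, larger with SP600125 in each, and 4.03, 4.80 and 3.05 in controls. Its part in the differences below was not tested. The keratins Krt8 and Krt18 of the trophectoderm and Pou5f1 of the inner cell mass were bright in every sample, the lowest signal in the compared samples being 11066 for Krt8, 15724 for Krt18 and 1213 for Pou5f1.

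Of 27022 probe sets tested, 213 (0.788%) differed between the compounds at an adjusted p under 0.05, which is the meaning of "called" throughout. Relative to SP600125, 61 (0.226%) were higher with SB203580 and 152 (0.563%) were lower. At the level of 12614 named genes, 48 (0.381%) were higher and 112 (0.888%) were lower, together 1.27%, and no gene was called in both directions. Called genes that differed by at least 1 on the log2 scale numbered 8 higher and 68 lower. All 213 called probe sets had the same sign in the 3 replicates, which was nearly given, since the calls rest on these same replicates. Calls made on the 430 2.0 arrays alone numbered 116, and 111 of these (95.7%) had the same sign in replicate 1, where the corresponding share over all tested probe sets was 58.7%. Centring each array on its median moved the split to 15 higher and 114 lower, 11.6% higher in place of 28.6%. Leaving out 1 of the 6 compared libraries lowered the number of calls to between 99 and 142, 142 without SB203580 replicate 1, 103 without SB203580 replicate 2, 102 without SB203580 replicate 3, 134 without SP600125 replicate 1, 103 without SP600125 replicate 2 and 99 without SP600125 replicate 3. Of the 45 called genes named below, 17 kept the call whichever of the 12 libraries was left out: BC080696, Apoa1, Ctsll3, Zfp352, Usp17la, Laptm5, D13Ertd608e, Phlda2, Cdkn1a, Mapkapk3, Grb10, Ccng1, Eomes, Pdgfra, Aqp8, Ckb and Lpcat1. The others lost it in at least 1 omission. The control mean lay between the 2 compounds for 45 of the 61 higher and 118 of the 152 lower probe sets. These were called for their gap between the compounds, so the counts were partly set by that choice.

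Among the target kinases and their nearest substrates, the transcript of Mapkapk3, the p38-activated kinase MK3, differed between the compounds. Mapkapk3 signal was 1399.5, 233 and 280.4 with SB203580, against 3861, 1127 and 902 with SP600125 in replicates 1 to 3. It was lower with SB203580 in every replicate, without overlap on either array type. The log2 difference was -1.77 ± 0.22 (SE, n = 3, adjusted p = 0.000433), or 3.41-fold lower. Controls had 4506, 899 and 567, and set against them the log2 difference was -1.52 with SB203580 (adjusted p = 0.00394) and 0.25 with SP600125 (adjusted p = 0.852). Both of these use the same controls. With U0126 the Mapkapk3 signals were 2946, 348 and 457, under the control of each replicate. A second Mapkapk3 probe set had the same sign and was not called.

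The kinases themselves and the other substrates did not pass the test. Mapk14, which encodes p38 alpha, had 1875, 2838 and 2661 with SB203580, against 1501, 2240.1 and 2654 with SP600125, a log2 difference of 0.22 ± 0.14 (adjusted p = 0.646). The differences were 0.06 ± 0.28 for Mapkapk2, 0.38 ± 0.14 for Mapkapk5, which encodes a further kinase of this family, 0.02 ± 0.25 for Mapk8 (JNK1) and 0.12 ± 0.17 for Mapk9 (JNK2). Mapk11, which encodes p38 beta, did not pass the filter on low signal. Jun signal was 269.9, 245 and 587 with SB203580, against 204, 186 and 239.9 with SP600125. Jun values overlapped on neither array type, yet the difference of 0.67 ± 0.31 stayed short of the threshold (adjusted p = 0.445). Mapkapk3 was the single called gene among 22 tested of the p38 pathway list, where the median difference was 0.06. Over all genes 0.888% were called lower. None of 21 tested genes of the JNK pathway was called, with a median of -0.09. By their brightest probe sets the 2 members with the smallest p were Dusp16, a phosphatase that acts on JNK, at 0.84 ± 0.31 (adjusted p = 0.298), and Jun.

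The largest differences were in genes lower with SB203580, and the plot of the 12 largest differences in each direction shows them beside those that were higher. BC080696, a gene whose function is not described here, had signals of 90.2, 32.7 and 24.5 with SB203580, against 3853, 1015 and 2612 with SP600125. Every SB203580 sample was under every SP600125 sample, with a log2 difference of -5.29 ± 0.42 (adjusted p = 6.5e-06), a 39.2-fold gap. Its controls read 214, 146 and 33.1, above the SB203580 samples and far under the SP600125 samples.

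Apoa1, the main protein of high-density lipoprotein, gave 24.8, 21.5 and 68.1 with SB203580, against 625, 1715 and 1240.4 with SP600125, and 106, 605 and 257 in controls. It stood at -4.57 ± 0.48 (adjusted p = 0.000143, 23.8-fold lower), and all 4 of its probe sets were called. The controls lay between the compounds in every replicate. The log2 difference from control was -2.53 with SB203580 (adjusted p = 0.0271) and 2.04 with SP600125 (adjusted p = 0.0756). Ctsll3, which encodes a cathepsin L-like protease, had 4.8, 209 and 266 with SB203580, against 1064, 3665 and 3519 with SP600125, a difference of -4.56 ± 0.57 (adjusted p = 0.000591). Its controls, at 1041, 1388 and 707, were above the SB203580 samples and, on the 430 2.0 arrays, under the SP600125 samples.

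Other large differences in the lower direction were in Robo1, a guidance receptor, at -2.60 ± 0.46, Gpx3, a secreted glutathione peroxidase, at -2.61 ± 0.48, and Laptm5, a lysosomal membrane protein, at -2.41 ± 0.25. Speer4cos, at -2.80 ± 0.52, and D13Ertd608e, at -2.37 ± 0.36, are transcripts with no role given here. Their adjusted p-values ran from 0.000142 to 0.0146. For Robo1, Gpx3 and D13Ertd608e the SP600125 samples were the ones that stood apart: the log2 difference from control was 0.08, -0.48 and 0.37 with SB203580 and 2.68, 2.13 and 2.74 with SP600125, and both sets of values use the same controls.

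Genes higher with SB203580 differed less. Ttll11, a tubulin polyglutamylase, had 741, 83.5 and 248 with SB203580, against 80.3, 7.4 and 33.9 with SP600125. The difference was 2.59 ± 0.44 (adjusted p = 0.00793) and rests on 1 dim probe set. The other Ttll11 probe sets, at -0.06 ± 0.40 and 0.07 ± 0.44, were not called and showed no such difference. Pdgfra, the PDGF receptor alpha, had 1030.4, 2501 and 2924 with SB203580, against 324, 1198 and 999.8 with SP600125. Each SB203580 sample was above each SP600125 sample of the same array type, with a difference of 1.41 ± 0.15 (adjusted p = 0.000143). Aqp8, a water channel, was at 1.14 ± 0.15 (adjusted p = 0.000887) and Ckb, the brain-type creatine kinase, at 1.09 ± 0.14 (adjusted p = 0.000909). Car4, a carbonic anhydrase, was at 1.29 ± 0.27, Flrt3, an adhesion protein, at 1.22 ± 0.25, and Pold1, the catalytic subunit of DNA polymerase delta, at 1.02 ± 0.22. Nkain1, Ddah2, Lpcat1 and Ckap4 each lay at 0.91, with SE from 0.15 to 0.20. With SP600125 these 4 genes had log2 differences from control between -1.54 for Ckap4 and -0.27 for Lpcat1. Ckap4 and Nkain1 each had 1 called probe set of 4. The other Ckap4 probe sets were at 0.41, 0.53 and 0.28, and its called one at only 0.19 in replicate 2. The other Nkain1 probe sets were at 1.32, 0.19 and 0.36. The brighter Flrt3 probe set, at 0.76 ± 0.21, was not called (adjusted p = 0.129).

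**Figure D1:**
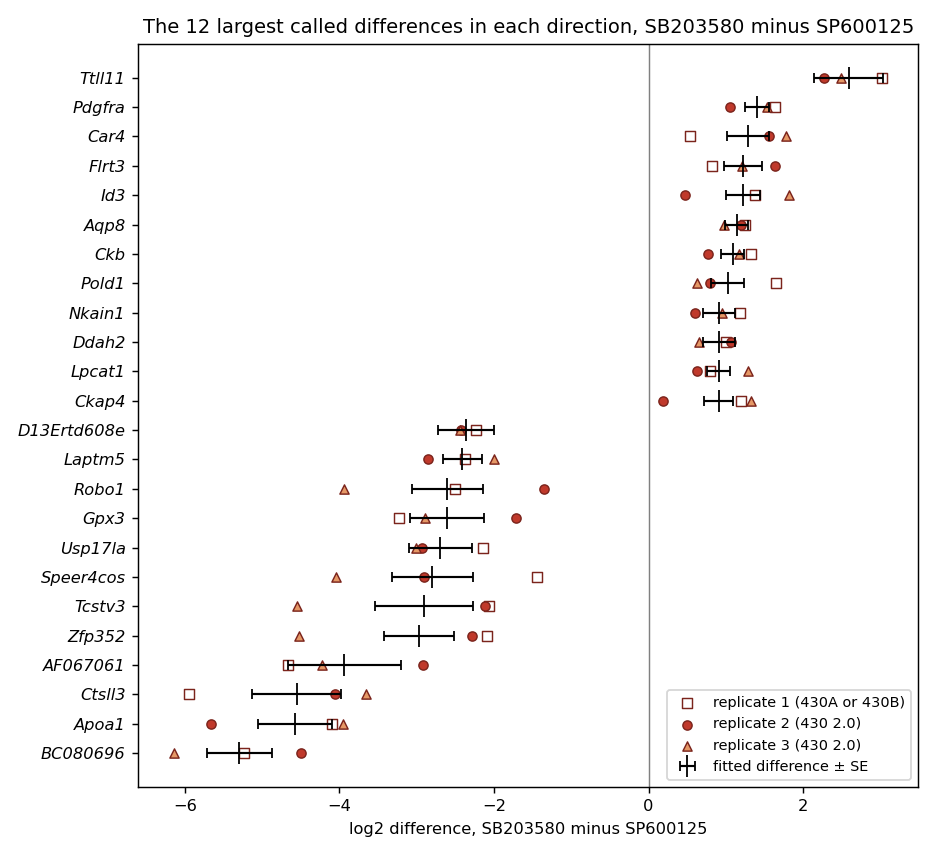
Log2 differences, SB203580 minus SP600125, of the called genes with the 12 largest differences in each direction: points are the 3 replicates (open squares 430A or 430B, filled symbols 430 2.0) and black marks the fitted difference ± SE. BC080696, Apoa1 and Ctsll3 lie beyond -4 and every point of each gene is on the same side of 0, as the choice of genes required.

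Several targets of p53, a transcription factor that responds to DNA damage and other stress, were lower with SB203580. Of 22 listed targets 19 were tested and 6 were called, each of them lower, against 0.888% of all genes called lower. The sign was negative for 17 of 19, where 6080 of all 12614 genes were negative. That share over all genes is also the one to set beside the sign counts of the lists below. The median difference was -0.71, against 0.01 over all genes, and it was -0.42, -1.06 and -0.61 in replicates 1, 2 and 3. The list median from control was -0.12 with SB203580 and 0.47 with SP600125, over the same control samples.

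Cdkn1a, the cell cycle inhibitor p21, had signals of 631, 677 and 814 with SB203580, against 1632, 3241 and 2825 with SP600125. All SP600125 samples were above all SB203580 samples, and the difference was -1.79 ± 0.23 (adjusted p = 0.000604), with both probe sets called. Controls had 1702, 1166 and 1245, so that on the 430 2.0 arrays they lay between the compounds and in replicate 1 just above SP600125. Neither arm differed from control by the test for Cdkn1a, at -0.93 with SB203580 (adjusted p = 0.0992) and 0.86 with SP600125 (adjusted p = 0.137).

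Ccng1, cyclin G1, had 819, 4117 and 4747 with SB203580, against 1832, 11866 and 11063 with SP600125, a difference of -1.30 ± 0.19 (adjusted p = 0.0023), and its 3 probe sets were all called. Plk2, a polo-like kinase, had 67.7, 75.8 and 159 with SB203580, against 348, 484 and 571 with SP600125, and 89.4, 74.2 and 74 in controls. SB203580 samples of Plk2 were near the controls and SP600125 samples above both, with -2.14 ± 0.40 between the compounds (adjusted p = 0.0156). Ddit4l, a relative of the mTOR inhibitor REDD1, showed the same order, with 182, 221 and 235 with SB203580, against 447, 608 and 1172 with SP600125 and 166, 184 and 146 in controls. Its difference was -1.64 ± 0.31 (adjusted p = 0.0167). Trp53inp1, a stress-induced nuclear protein, differed by -1.01 ± 0.19, and Aen, an apoptosis-enhancing nuclease, by -0.76 ± 0.16 (adjusted p = 0.0146 and 0.031). SP600125 was higher in all 3 replicates for each of them.

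Several other targets were not called. Pmaip1, which encodes NOXA, was at -0.80 ± 0.28 (adjusted p = 0.249), Bbc3, which encodes PUMA, at 0.01 ± 0.42 and Perp, a membrane protein, at 0.08 ± 0.16. Mdm2, the ubiquitin ligase that limits p53, was at -0.58 ± 0.26 (adjusted p = 0.435). The 6 calls of the list depended on single libraries. They numbered 2 without SB203580 replicate 1, SB203580 replicate 2, SP600125 replicate 2 or SP600125 replicate 3, 4 without SB203580 replicate 3 and 6 without SP600125 replicate 1. Cdkn1a and Ccng1 were called in each of these omissions, and none of the 6 was called when the intensity trend was left out of the model. In the plot of p53 targets, the SP600125 points of Plk2 and Ddit4l stand above 1 and the SB203580 points of Cdkn1a under 0.

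**Figure D2:**
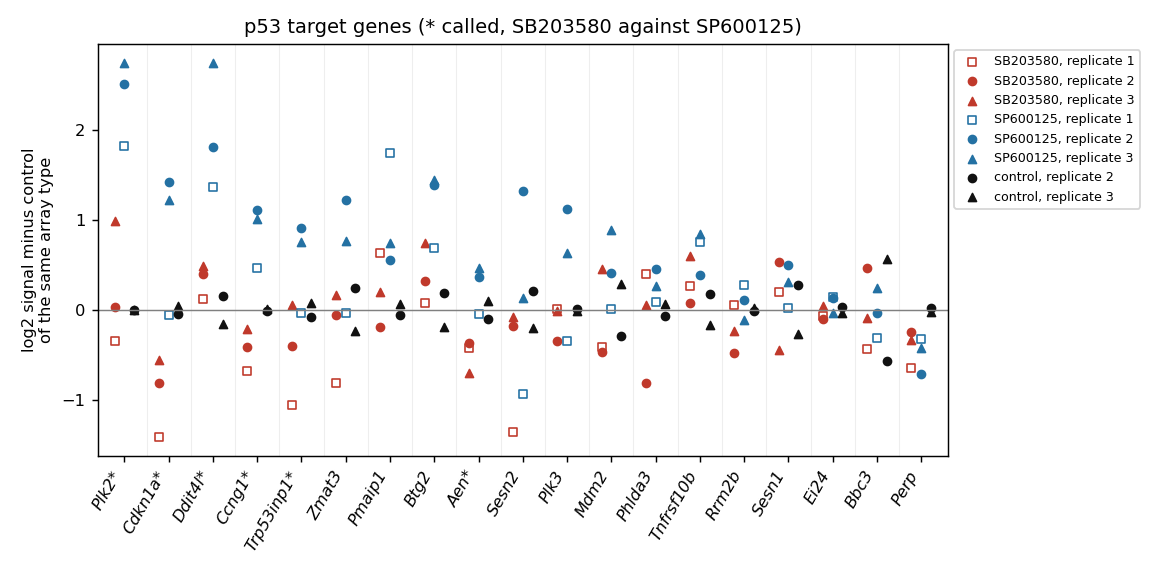
Log2 signal of 19 p53 targets minus the control of the same array type (the single control in replicate 1, the mean of 2 controls otherwise), with SB203580 in red, SP600125 in blue and controls of replicates 2 and 3 in black; stars mark the 6 called genes. SP600125 points lie above SB203580 points of the same replicate in each called gene.

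Upstream sequences are shown for 4 of the 6 called p53 targets. No window is shown for Trp53inp1. The 250 bases before each annotated start were searched on both strands for the p53 half-site consensus of 10 letters, taken from RefSeq windows of build GRCm38.p6. Of 32851 such windows, 2341 (7.13%) hold a half-site and 85 (0.26%) hold 2 or more, and 8.20% of 27025 genes hold one in any window. Among the 19 tested p53 targets 13 have a window, and 7 of these hold a half-site. They were listed as p53 targets, so this share is no separate evidence. Capitals mark the half-sites below, and a match is a description of letters, not of binding. Cdkn1a has 2, their first bases 73 and 51 bases before one start, while the window of a second start holds none. Ccng1 has 1 half-site, 185 bases before its start, Ddit4l has 1 at 90 bases, and Aen has 1 at 121 bases before one of 2 starts. The Plk2 window holds no match to these letters. The Cdkn1a window is at chr17:29090729-29090978 on the plus strand, that of Ccng1 at chr11:40755287-40755536 on the minus strand, that of Ddit4l at chr3:137623422-137623671 on the plus strand, and the 30 bases of Aen at chr7:78895927-78895956 on the plus strand.
Cdkn1a: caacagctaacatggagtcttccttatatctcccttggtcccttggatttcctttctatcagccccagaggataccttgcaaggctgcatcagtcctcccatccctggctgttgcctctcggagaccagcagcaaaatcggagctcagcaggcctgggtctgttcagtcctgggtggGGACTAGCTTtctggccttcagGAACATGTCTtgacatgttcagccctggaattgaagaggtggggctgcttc
Ccng1: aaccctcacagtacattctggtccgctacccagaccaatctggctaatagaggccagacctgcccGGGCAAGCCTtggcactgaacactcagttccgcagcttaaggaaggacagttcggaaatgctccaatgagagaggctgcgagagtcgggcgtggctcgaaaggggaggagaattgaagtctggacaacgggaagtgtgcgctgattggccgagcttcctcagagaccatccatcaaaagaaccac
Ddit4l: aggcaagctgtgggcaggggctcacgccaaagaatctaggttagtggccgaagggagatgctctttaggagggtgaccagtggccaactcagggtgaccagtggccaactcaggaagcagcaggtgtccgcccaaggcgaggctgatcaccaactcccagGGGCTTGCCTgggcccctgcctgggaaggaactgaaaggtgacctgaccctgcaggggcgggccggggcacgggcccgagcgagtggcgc
Aen: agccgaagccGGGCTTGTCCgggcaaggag

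Some genes known from the cleavage-stage embryo, when the mouse genome is first transcribed, were lower with SB203580. Of 20 listed genes 8 were on the array with a single name and 7 were tested. Of the 7, Tcstv1, Tcstv3, Spz1 and Tdpoz1 passed the filter on mean signal only through the SP600125 arrays. Their signs and calls were thus bound up with the filter, and no count of calls or signs and no median is given for the list. Zfp352, Usp17la and Eif1ad passed the filter without those arrays. Eif1ad, the brightest of these, was not called, at -0.14 ± 0.12 (adjusted p = 0.764). Zfp352, a zinc finger gene, had 65.7, 81.4 and 16.1 with SB203580, against 321, 445 and 649.8 with SP600125, and 112, 62.8 and 78.4 in controls. The SP600125 samples stood above all SB203580 and control samples, and the difference was -2.97 ± 0.45 (adjusted p = 0.00284). Usp17la, a deubiquitinase gene, had 134, 84.3 and 153 with SB203580, against 639, 724 and 1318 with SP600125, and 195, 99.4 and 57 in controls. It likewise was high in the SP600125 samples and not in the controls, at -2.69 ± 0.41 (adjusted p = 0.00273).

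Tcstv3, a gene known from embryonic stem cells in a cleavage-like state, had 20.9, 20.6 and 2.6 with SB203580, against 127, 131 and 342 with SP600125. Its difference was -2.91 ± 0.63 (adjusted p = 0.0369), and it lost the call without any single one of the 6 libraries, with values from -3.91 to -1.86 over all settings tried. AF067061, a gene outside the list with a probe set that can bind related transcripts, had 13.7, 139.7 and 118 with SB203580, against 654, 1137 and 2431 with SP600125, a difference of -3.93 ± 0.73 (adjusted p = 0.0142). The oocyte and maternal effect list had 1 call in 13 tested genes, Nlrp4f at -1.30 ± 0.21, and a median of -0.01. Over all genes 0.888% were called lower.

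Primitive endoderm genes had mostly positive differences. Of 22 tested, 3 were called higher (0.381% of all genes were) and 1 was called lower, and 16 were positive. The median difference was 0.51, with 0.17, 0.49 and 0.67 in replicates 1, 2 and 3. In both arms the list median lay under the controls, at -0.52 with SB203580 and -1.20 with SP600125. Pdgfra, described above, was the called gene with the smallest p, and its controls of 684, 2548 and 2461 were close to the SB203580 samples. Its difference from control was 0.27 with SB203580 (adjusted p = 0.643) and -1.14 with SP600125 (adjusted p = 0.00168).

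Col4a1 and Col4a2 encode the chains of collagen IV, the network of basement membranes. Col4a1 had 1535, 2284 and 3062 with SB203580, against 898, 1539 and 1425 with SP600125, and 2496, 3880.2 and 3283 in controls. Col4a2 had 630.2, 662 and 691 with SB203580, against 387, 350 and 396 with SP600125, and 1107, 1109.6 and 983 in controls. In every replicate both genes were higher with SB203580 than with SP600125, and highest in the control, with differences of 0.81 ± 0.16 (adjusted p = 0.0215) and 0.79 ± 0.17 (adjusted p = 0.0368) between the compounds. The adaptor Dab2, which sorts endocytic receptors, went the other way at -0.63 ± 0.14 (adjusted p = 0.0367), as the 1 called probe set of 4. Its brightest probe set was at -0.19 (adjusted p = 0.53), and the other two at 0.00 and -0.06.

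The transcription factors of the lineage were not called. Sox17 was at 0.77 ± 0.21 (adjusted p = 0.113), Foxa2 at 0.81 ± 0.28, Gata4 at 0.63 ± 0.33 and Gata6 at -0.18 ± 0.12, the last bright in all samples with 2995, 4818 and 4920.5 with SB203580, against 3815, 5279 and 5178 with SP600125. Sox17 signals were 983, 1543 and 2959.6 with SB203580, against 503, 1445 and 1235 with SP600125, and 1388, 3571 and 3341 in controls. Sox17 values of the compounds did not overlap on either array type, although the gap in replicate 2 was small. Among uncalled members of the list, Cubn, the receptor cubilin, at 1.26 ± 0.37, and Serpinh1, the collagen chaperone, at 0.87 ± 0.22, had larger positive values than Lrp2, the partner receptor megalin, at -0.07 ± 0.12. The number of calls in the list depended on single libraries: it was 3 higher without SB203580 replicate 1 or 2, 1 higher without SB203580 replicate 3 or any 1 SP600125 replicate, and 0 lower in all 6 cases. In the plot of primitive endoderm genes most points of either compound lie under the control line.

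**Figure D3:**
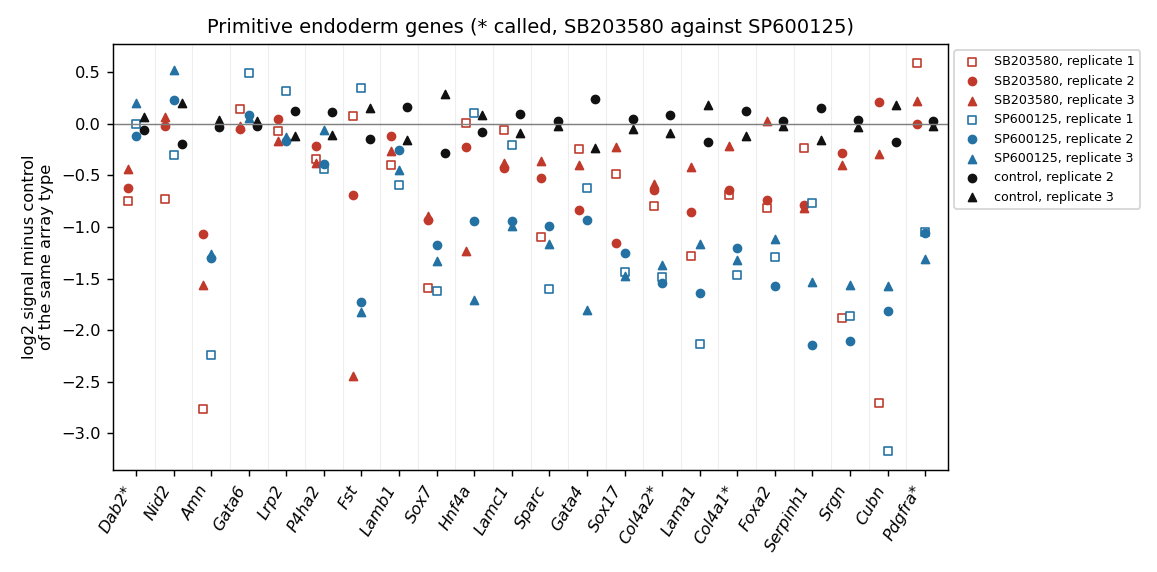
Log2 signal of 22 primitive endoderm genes minus the control of the same array type, drawn as for the p53 targets; stars mark the called genes Pdgfra, Col4a1, Col4a2 and Dab2. Pdgfra, Col4a1 and Col4a2 have SB203580 points above SP600125 points, and Dab2 the reverse.

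Basement membrane genes overlap this list in part. Of 18 tested, 2 were called higher (0.381% of all genes were), the collagens above, and none lower. In sign 15 were positive, with a median of 0.42 (0.17, 0.44 and 0.53 in replicates 1, 2 and 3). The laminin chain Lama1 stood at 0.79 ± 0.21 (adjusted p = 0.094) and the collagen-modifying enzyme Plod1 at 1.05 ± 0.30 (adjusted p = 0.148), both short of the threshold. Lamb1, at 0.17 ± 0.15, and Nid1, at 0.03 ± 0.12, were closer to 0. The list had 2 calls without SB203580 replicate 2, and 0 without SB203580 replicate 1, SB203580 replicate 3 or any 1 SP600125 replicate.

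In the trophectoderm list 1 of 18 tested genes was called, and it was lower (0.888% of all genes were). It was Eomes, a T-box factor of trophoblast progenitors. Eomes had 2843, 4629 and 4238 with SB203580, against 4321, 9148 and 9583 with SP600125, and 3189.5, 7197 and 5562 in controls. SB203580 samples were the lowest and SP600125 samples the highest on each array type, with a difference of -0.92 ± 0.13 (adjusted p = 0.0012) and both probe sets called. Of the list 15 genes were negative, with a median of -0.15. Cdx2, the factor that specifies trophectoderm, was at -0.37 ± 0.16 (adjusted p = 0.375), Tfap2c at -0.47 ± 0.12 and Gata3 at -0.43 ± 0.17, and the structural keratins Krt8 and Krt18 were each at -0.10. Elf3, an epithelial Ets factor and the 1 call among 15 Ets family genes, was at -0.55 ± 0.10 (adjusted p = 0.0121).

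None of 18 epiblast genes was called, and their median was 0.12 with 13 positive. Dppa4 was at 0.39 ± 0.11 (adjusted p = 0.129) and Tdgf1, a Nodal co-receptor, at 0.47 ± 0.14 (adjusted p = 0.159). The pluripotency factor Nanog was at -0.49 ± 0.20 and Pou5f1 at 0.28 ± 0.16, and Dppa3, Dppa5a and Zfp42 were within 0.03 of 0. Signalling lists that act on the inner cell mass had few or no calls. Id3, an inhibitor of basic helix-loop-helix factors induced by BMP, was the 1 call of 15 BMP genes, with 544, 925 and 1586 with SB203580, against 202, 666 and 440.3 with SP600125, at 1.22 ± 0.22 (adjusted p = 0.0116). The BMP list had 12 positive genes and a median of 0.26, and over all genes 0.381% were called higher. The ERK output list had a median of 0.50 but 0.08 in replicate 2, and no call in 14. Its members with the smallest p were Dusp4, a phosphatase acting on ERK, at 0.86 ± 0.23 (adjusted p = 0.113) and the feedback inhibitor Spry2 at 0.53 ± 0.16 (adjusted p = 0.154). The negative members were Ier3 at -1.08, Ccnd1 at -0.81, Spred1 at -0.29, Dusp6 at -0.17 and Etv4 at -0.10.

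Genes of fatty acid metabolism were called in both directions. Of 15 listed genes of fatty acid and phospholipid synthesis, 3 were called higher with SB203580 (0.381% of all genes were), none lower, and 14 were positive, with a median of 0.41 (0.32, 0.35 and 0.45 in replicates 1, 2 and 3). The list median from the shared controls was 0.04 with SB203580 and -0.40 with SP600125. Lpcat1, an acyltransferase of phosphatidylcholine remodelling, had 4076, 5002 and 5045 with SB203580, against 2334, 3223 and 2059 with SP600125. It was at 0.91 ± 0.15 (adjusted p = 0.0046), with 4 of 5 probe sets sharing the sign. Scd2, a stearoyl-CoA desaturase, had 2721, 9950 and 12664 with SB203580, against 1898, 5758 and 6294 with SP600125. It was at 0.77 ± 0.16 (adjusted p = 0.0311), and its relative Scd1 at 0.63 ± 0.14 (adjusted p = 0.0465). The brightest Scd1 probe set was at 0.41 ± 0.11 (adjusted p = 0.113) and was not called. Both desaturases were under the controls with SP600125, at -0.97 and -0.95.

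Outside the list, and picked after their values were seen, Acsl6, an acyl-CoA ligase, at -1.16 ± 0.23, Hacd1, a dehydratase of fatty acid elongation, at -0.70 ± 0.16, and the thioesterases Acot1 and Acot2, at -1.71 ± 0.27 and -1.15 ± 0.17, were called lower. The remaining enzymes of the list were not called, with Acsl3, an acyl-CoA ligase, at 0.63 ± 0.15, Fasn, the fatty acid synthase, at 0.45 ± 0.17, and Acly, the ATP citrate lyase, at -0.02 ± 0.13. The 3 calls of the list were 2 without SB203580 replicate 1 or SP600125 replicate 1, and 1 without any 1 of the other 4 libraries. Cholesterol synthesis had no call in 20 genes and a median of 0.05, with Idi1 at 0.30 ± 0.13 and Fdft1 at -0.28 ± 0.13 having the smallest p by the brightest probe sets. Its list medians from the shared controls were -0.48 with SB203580 and -0.52 with SP600125. The called apolipoproteins went opposite ways. Apoe, which carries lipid out of cells, was higher with SB203580, at 0.81 ± 0.17 (adjusted p = 0.0277). Apoe had 2429, 6494 and 7465 with SB203580, against 1633, 3724 and 3546 with SP600125. Apoa1 was the gene with the second largest difference in the lower direction. The other listed apolipoproteins tested, Apoa2, Apoc1, Apoc2 and Apom, were at 0.57, 0.14, -0.13 and -0.31, none called.

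Imprinted genes, which are expressed from 1 parental copy, had 2 calls in 23, both lower with SB203580 (0.888% of all genes were) and both known to restrain growth. Phlda2 had 432, 414 and 587 with SB203580, against 1367, 2707 and 2134 with SP600125, and 594, 1071 and 617 in controls. With U0126 it had 751, 1790 and 1688, also above the controls. It was under the controls with SB203580 and above them with SP600125 in every replicate, and the difference was -2.05 ± 0.23 (adjusted p = 0.0002). Grb10, an adaptor of insulin and IGF receptors, had 491, 773 and 742 with SB203580, against 1256, 1642 and 2105 with SP600125, and 513, 560.2 and 932 in controls, where the SP600125 samples alone stood high. The difference was -1.30 ± 0.19 (adjusted p = 0.00189). The other Grb10 probe sets, both dim, were at -0.15 ± 0.44 and 0.46 ± 0.64 and were not called. The list median was 0.01, as over all genes.

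Single calls appeared in several other lists. Over all genes, 0.381% were called higher and 0.888% lower. Aqp8 was the 1 call among 12 sodium pump and water channel genes, with 731, 1754 and 1811 with SB203580, against 300.4, 756 and 915 with SP600125, and 1092, 1977 and 2052 in controls. SB203580 samples were above SP600125 samples and under the controls on each array type (adjusted p = 0.000887). Klk7, a kallikrein protease, was the second call beside Ctsll3 among 20 secreted proteases and inhibitors, at -1.19 ± 0.21 (adjusted p = 0.0112). Its signal was highest with U0126, at 1420, 1298 and 1140, against 561, 803 and 582 with SP600125. Klf6, a zinc finger factor, was the 1 call of 20 AP-1 and immediate early genes, at -0.78 ± 0.15 (adjusted p = 0.0193). Of 5 Klf6 probe sets, all negative, 1 was called, and the brightest was at -0.50 ± 0.15 (adjusted p = 0.156). Cnn2, the actin-binding protein calponin 2, was the 1 call of 18 actin and SRF targets, at -0.75 ± 0.15 (adjusted p = 0.0198). For Cnn2 it was SB203580 that stood under the controls, at -0.77 (adjusted p = 0.0271), with SP600125 at -0.03 (adjusted p = 0.99).

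**Figure D4:**
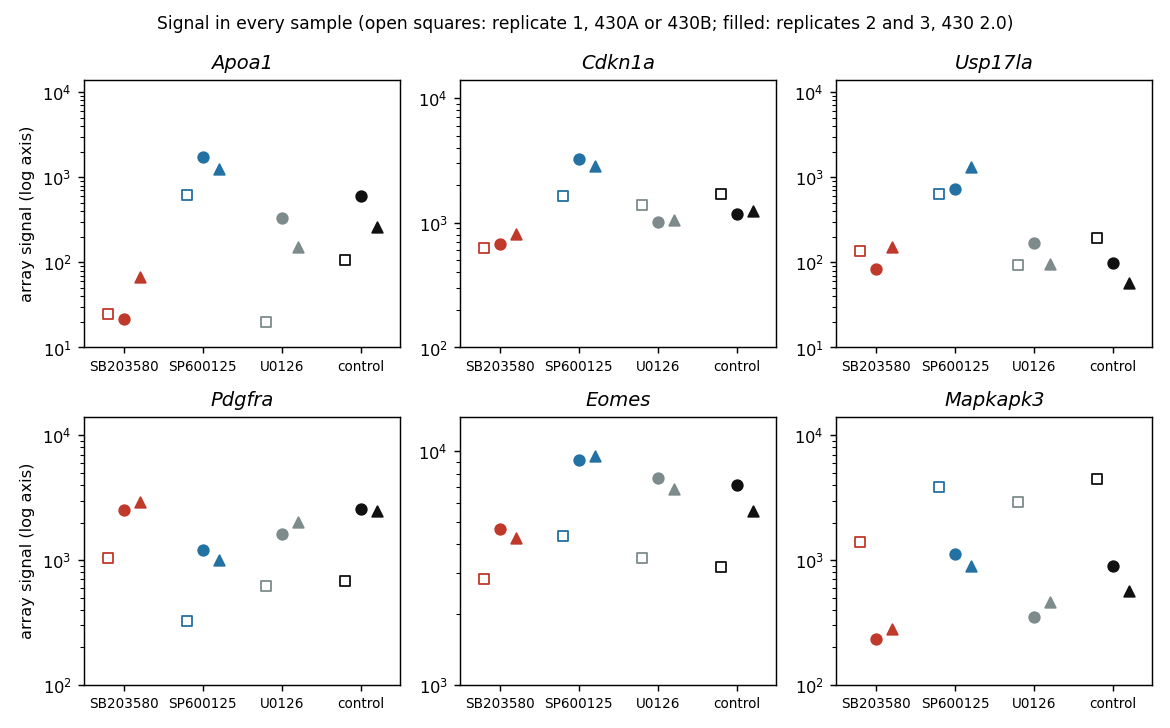
Array signal on a log axis for Apoa1, Cdkn1a, Usp17la, Pdgfra, Eomes and Mapkapk3 in every sample of the 4 groups, replicate 1 as open squares (430A or 430B) and replicates 2 and 3 as filled symbols (430 2.0). Within an array type the SB203580 and SP600125 points do not overlap, and the controls lie nearer SB203580 for Usp17la and Pdgfra and nearer SP600125 for Mapkapk3.

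Markers of cells other than the blastocyst were checked beside these results. Of 14 blood and immune cell genes 4 were tested, and 1, Laptm5, was called lower (0.888% of all genes were). Laptm5 had 61.2, 212 and 384 with SB203580, against 370.4, 1605 and 1576 with SP600125. In the SB203580 samples the 4 summed to a signal of 450.4, 456.1 and 701.8, and in the SP600125 samples to 779.9, 1879 and 1889.8. Controls summed to 536.1, 858 and 911.4. The sum moved with Laptm5, the brightest of the 4 in the SP600125 samples. The macrophage markers Adgre1, Cd68 and Lyz2 were at -0.03 ± 0.39, -0.43 ± 0.35 and 0.59 ± 0.43, none called. The other listed genes, among them the globins, Ptprc and Cd3e, did not pass the filter on low signal or carried no single gene name. Of 15 cumulus and granulosa cell genes 6 were tested and none called, with sums of 3924.3, 410.3 and 817.9 with SB203580 and 3416.8, 602.2 and 853.2 with SP600125. Of 12 uterine and oviduct genes 6 were tested and none called, with sums of 1582.4, 779.3 and 1041.5 with SB203580 and 1692.2, 1167.7 and 957.8 with SP600125. The part of other cells in the Laptm5 result was not tested.

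Lists of general cell function showed little difference. No member was called among 25 genes of G1 to S and replication (median 0.07), 26 of G2 and M phase (0.00), 23 of the respiratory chain (0.01), 15 of glycolysis (0.22), 21 lysosomal genes (-0.01), 20 of the BCL2 family and caspases (-0.04), 16 of heat shock (-0.06), 18 of NRF2 and glutathione (-0.07) and 24 of the amino acid response (0.11). The smallest p in these lists was that of Nupr1, a stress-induced chromatin protein, at 0.89 ± 0.20 (adjusted p = 0.0538). Also without a call, 20 endoplasmic reticulum chaperones had 17 negative members and a median of -0.20, led by Dnajb11 at -0.53 ± 0.14 (adjusted p = 0.106), and 24 genes of ribosome biogenesis had 19 positive members and a median of 0.15. Junction genes, keratins, tetraspanins, Hippo, Wnt, Nodal, FGF, aryl hydrocarbon receptor, DNA methylation and sulphation lists had no call either. In them Cldn6, a claudin, was at 0.83 ± 0.20 (adjusted p = 0.0687) and Tiparp, a target of the aryl hydrocarbon receptor, at -0.72 ± 0.18 (adjusted p = 0.0901). Sulf2, a heparan sulphatase, was at 0.47 ± 0.12 by its brightest probe set (adjusted p = 0.0882) and at -0.64 ± 0.15 by another (adjusted p = 0.0631). Of 5 probe sets of Dnmt3a, a DNA methyltransferase, 1 was at -1.16 ± 0.28 (adjusted p = 0.065), and its brightest at -0.55 ± 0.28 (adjusted p = 0.518). The plot of list medians puts p53 targets at one end and primitive endoderm and ERK output at the other.

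**Figure D5:**
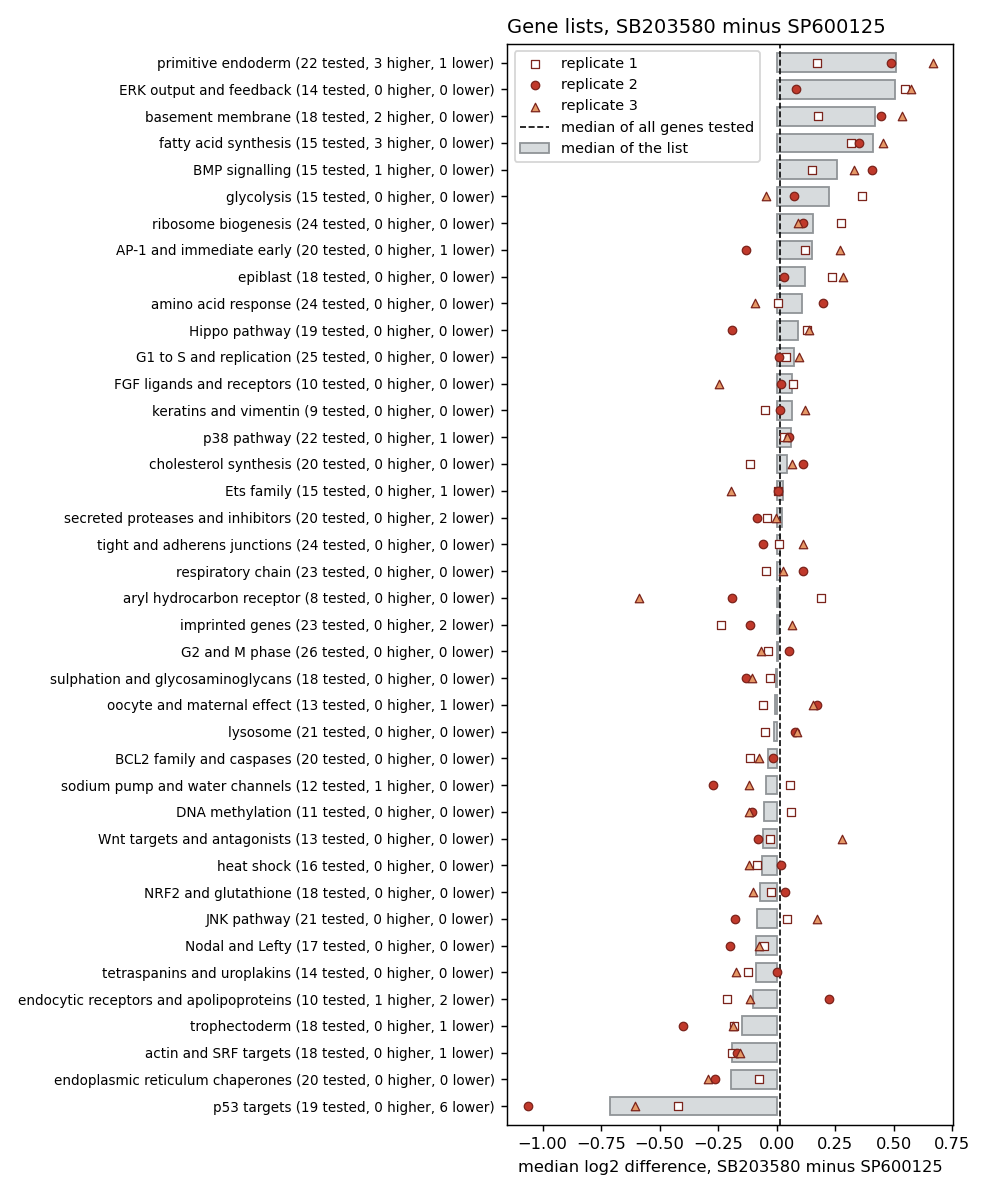
Median log2 difference, SB203580 minus SP600125, of each gene list with at least 7 tested genes (grey bars) other than the cleavage-stage list, with the medians of the 3 replicates as points, the median of all genes as a dashed line, and the numbers tested and called beside each name. The p53 targets (-0.71) are the lowest bar, and primitive endoderm (0.51) and ERK output (0.50) the highest.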

How the data were processed

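Per the labels, total RNA was labelled by the small sample assay (replicate 1, 430A and 430B arrays joined by label number into 1 sample) or the two-cycle assay (replicates 2 and 3, 430 2.0 arrays). Each deposited file gives a linear signal intensity for every probe set, which the authors had scaled to a mean of 500 with 2% trimmed at either end, as checked on all arrays. The scanner software was not given in the sources used here, nor were the background correction and the probe summary.

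From these, 12.6 (the 20th percentile of the 430 2.0 values) was added and log2 taken. Control probe sets were left out. Of 45037 probe sets, 34945 named 1 gene in GEO's platform annotation, 932 several and 9160 none, and 164 on both 430A and 430B entered once. A filter at the 40th percentile of mean 430 2.0 signal (42.9) left 27022 probe sets for testing, of which 22545 named 1 gene.

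The test of SB203580 minus SP600125 used limma 3.58.1 (R 4.3.3), with 4 groups and array type as a fixed block over all 12 samples, an intensity trend, 7 residual degrees of freedom and 9.71 prior ones at the median. Two-sided p-values were adjusted by Benjamini-Hochberg across the 27022 probe sets, and errors are SE with n = 3 per group. The model was tested on simulated data. Differences per replicate set SB203580 against SP600125 within 1 array type. A gene's value is that of its brightest tested probe set on the 430 2.0 arrays, or of its brightest called one for named genes. Fold changes are on the log2(signal + 12.6) scale and understate changes of dim genes. Arrays hold no counts, and their number limits the precision.

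Genes were named by rule: the 12 largest called differences in each direction with the same sign in 3 replicates, from every list as many as 6 called genes or, where it had no call, the 2 with the smallest p, and the target kinases and substrates. Further uncalled list members are named for their known role and were chosen after their values were seen. The members and lists were chosen with earlier results of these data known, and no test was made of a list. Alternatives were the added constant, the filter, quantile or median scaling, only the 6 compared samples, a replicate block, 430 2.0 arrays alone, no trend, dropping _x_at and _s_at probe sets, and leaving out each sample. Same-numbered samples did not deviate together (r = 0.047 between SB203580 and SP600125), so the numbers were not treated as pairs.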

Additional observations from a re-analysis of the deposited data

How the results depend on the processing

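The count of 213 calls (61 higher, 152 lower) became 129 (15 and 114) with median centring, 318 (116 and 202) with only the 6 compared samples, 116 (25 and 91) on 430 2.0 arrays alone and 23 (2 and 21) without the intensity trend. With a replicate block it was 243 (77 and 166), but same-numbered samples share only a number here. Leaving out each of the 12 samples gave 99 to 258 calls, 13 to 86 higher and 78 to 172 lower. The other settings stayed within 1.5 times the count, from 170 without _x_at and _s_at probe sets to 256 with a stricter filter. All 45 named called genes kept their sign in every setting, which was nearly given, since each had the same sign in every replicate. Of them, 17 kept their call in every omission and 7 in every setting (BC080696, Laptm5, Apoa1, Pdgfra, Phlda2, Mapkapk3 and Aqp8). List medians ranged from -0.94 to -0.59 for p53 targets, 0.30 to 0.62 for primitive endoderm, 0.33 to 0.48 for fatty acid genes and 0.01 to 0.53 for ERK output. The cause of these differences between settings was not tested.

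With 3 samples a group, an uncalled gene cannot be read as equal between the compounds. Dim genes, such as Tcstv3 and Speer4cos with signals under 10 in some samples, rest on values near background. The compounds were given at different doses, and other effects of either compound than on its named kinase were not measured.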

Other observations

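Called genes outside the naming rule, chosen here after their values were seen, included several bright transcripts lower with SB203580 than with SP600125. Glipr1, a secreted cysteine-rich protein, had 373, 802 and 925 with SB203580, against 1285, 2870.1 and 2739 with SP600125, and 1396, 3104 and 2748 in controls, a log2 difference of -1.71 ± 0.14 (adjusted p = 6.5e-06). Its SP600125 samples were close to the controls and its SB203580 samples under both. SB203580 samples were likewise under both SP600125 samples and controls for Slc39a2, a zinc importer, at -1.91 ± 0.23, for Rfx4, a transcription factor, at -1.92 ± 0.21, and for Ak7, an adenylate kinase, at -2.04 ± 0.27. Others were high with SP600125, above both SB203580 and control. Slc40a1, the iron exporter ferroportin, was at -1.62 ± 0.17, with 363, 818 and 858 with SB203580. It had 891, 2886 and 3006 with SP600125, and 637, 1452 and 1244 in controls. Its SB203580 samples were thus also under the controls. The cytokine Il6 was at -2.33 ± 0.45, but at -0.63 in replicate 1. Its SP600125 difference from control was not called (adjusted p = 0.0864). Sycp3, a protein of the meiotic chromosome axis, was at -1.21 ± 0.17. Among genes higher with SB203580 were Fn1, fibronectin, at 0.71 ± 0.14, Mif, a cytokine, at 0.69 ± 0.10, the snoRNA host gene Snhg3 at 0.79 ± 0.11, and the ribosomal protein genes Rps10 and Rpl37a at 0.53 ± 0.09 and 0.47 ± 0.10.

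Among the called genes, 4 lie close together at one end of chromosome 13. In RefSeq order 31 genes run from AF067063 to Tcstv3, the last gene listed on that chromosome, and 7 of them had a tested probe set. Of these, 4 were called lower with SB203580 (0.888% of all genes were), none higher. Tcstv1, BC147527 and the called Tcstv3 passed the filter on mean signal only through the SP600125 arrays. Their signs are therefore no separate evidence, and neither is the count of calls in a run picked by its values. AF067063 had 54, 65.9 and 106 with SB203580, against 182, 436 and 541 with SP600125, and 86.6, 109.9 and 136 in controls, a difference of -2.10 ± 0.35 (adjusted p = 0.00623). D13Ertd608e had 138, 114 and 115 with SB203580, against 692, 666 and 683 with SP600125, and 202, 49.7 and 71.3 in controls. The uncalled members were Gm20767 at -3.19 ± 0.75, Tcstv1 at -1.86 ± 0.53 and BC147527 at -0.85 ± 0.67. The probe sets of D13Ertd608e, AF067061 and BC147527 carry the suffixes that mark binding to several transcripts, so that these 7 values may not be separate measurements. The run was noticed in these data and was not tested.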
